A study of Mus musculus with 13 samples.

Results

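The genes studied here are the early growth response genes Egr1, Egr2 and Egr3, the immediate early response genes Ier2, Ier3 and Ier5, and Srf, the gene of serum response factor. They were taken by gene symbol from the count table, which held all 7 of them among 54532 genes, and all 7 passed the filter on low counts that left 14280 genes for testing. Egr3 passed it only through the GalN/LPS libraries, with 17 counts in all other libraries together, so it had to differ from them and its calls that involve GalN/LPS livers support nothing. Egr2 had 1 count in the dmPGE2 and 2 in the saline libraries, so it passed only through injured livers. Its calls as higher than uninjured livers support nothing either. The study measured liver RNA of wild type C57 BL6 mice, 8 weeks old, by RNA sequencing. The 4 pretreated (dmPGE2+GalN/LPS) libraries came from mice given 300 µg/kg of dmPGE2, a stabilised analogue of prostaglandin E2, 1 h before 500 mg/kg of D-galactosamine and 5 µg/kg of lipopolysaccharide, and the 3 GalN/LPS libraries from mice given galactosamine and lipopolysaccharide alone, a model of acute liver failure. The 3 dmPGE2 libraries came from mice given dmPGE2 without injury, with no separate time from dmPGE2 to collection in the labels, and the 3 saline libraries from control mice. All injections were into the peritoneum and the livers were taken at 6 h. Whether each library came from a mouse of its own is not stated, so the p-values measure the spread between these samples, which may in part be technical. The model is named as in the sample labels, although the text on the whole series calls the mice AILI.

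Immediate early genes are transcribed within minutes of a stimulus, before any new protein is made, and most of their mRNAs are short-lived. Serum response factor sits on the CArG boxes of many of their promoters, where it works with ternary complex factors that the ERK kinases phosphorylate or with actin-sensing coactivators. EGR proteins are zinc finger transcription factors that these signals induce, and in liver EGR1 has been tied to acute injury and to regrowth after loss of tissue. IER3 is a survival factor downstream of NF-kB, IER5 binds heat shock factor 1, and IER2 is a small nuclear protein.

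The genes lie on 6 chromosomes of GRCm38/mm10. Egr2 (ENSMUSG00000037868) spans chr10:67535475-67542188 and Egr3 (ENSMUSG00000033730) spans chr14:70077203-70082614, both on the plus strand and with 2 or 3 exons in their coding transcripts. Ier2 (ENSMUSG00000053560, chr8:84661331-84662852) and Ier5 (ENSMUSG00000056708, chr1:155096361-155099636) lie on the minus strand and have 1 exon each. Ier3 (ENSMUSG00000003541, chr17:35821684-35822923) lies on the plus strand with 2 exons, and Srf (ENSMUSG00000015605, chr17:46548329-46556175) on the minus strand with 7. Srf alone overlapped other genes of the table, Mir6976 and Gm26904, which held at most 4 counts in all libraries together against 2800 for Srf.

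The 250 bases before the RefSeq start sites (GRCm38.p6) were searched on both strands for sequences that the regulators of this gene class bind. A CArG box was present in 1.47% of the 32851 windows of the table, the full cAMP response element TGACGTCA in 1.55%, its core TGACG in 17.8%, the EGR site GCGNGGGCG in 4.7% and the NF-kB site in 3.9%. Of the 7 genes, the windows of Egr2, Ier3, Ier5 and Srf are described. Egr3 and Ier2 had no such window, and that of Egr1 is not reported here. A window with a match is printed for each of Egr2, Ier3 and Srf, with the matches in capitals and no overlap between them. Egr2 had 5 windows, of which 4 held a CArG box, 1 of them with other letters (CCTTTTTTGG) than the rest. The rest are overlapping windows that share the same CCATATATGG site in the genome. The one shown, chr10:67537619-67537868 on the plus strand, ends just before the first exon of its main transcript in the GENCODE annotation. It held the CArG box CCATATATGG starting 72 bases before the start site, with TGACG at 111 bases and its reverse complement CGTCA at 55.
Egr2: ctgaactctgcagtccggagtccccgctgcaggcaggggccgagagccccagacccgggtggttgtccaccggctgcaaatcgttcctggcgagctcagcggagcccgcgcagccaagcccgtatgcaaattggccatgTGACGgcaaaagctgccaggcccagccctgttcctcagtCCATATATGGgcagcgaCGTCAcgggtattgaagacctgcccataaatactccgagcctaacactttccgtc
Ier3 (chr17:35821463-35821712, plus strand) held an NF-kB match, GGAGTTCCCC, 92 bases before its start.
Ier3: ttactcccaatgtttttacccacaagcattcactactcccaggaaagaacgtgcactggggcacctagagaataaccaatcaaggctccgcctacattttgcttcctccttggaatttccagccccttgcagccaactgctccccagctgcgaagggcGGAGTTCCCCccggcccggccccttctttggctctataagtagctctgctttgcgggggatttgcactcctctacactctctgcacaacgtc
Srf (chr17:46556163-46556412, minus strand) held CArG boxes at 82 and 62 bases, an EGR match, GCGGGGGCG, at 101 bases and TGACG at 201 bases, so the window of the serum response factor gene itself carried the sequence that serum response factor binds.
Srf: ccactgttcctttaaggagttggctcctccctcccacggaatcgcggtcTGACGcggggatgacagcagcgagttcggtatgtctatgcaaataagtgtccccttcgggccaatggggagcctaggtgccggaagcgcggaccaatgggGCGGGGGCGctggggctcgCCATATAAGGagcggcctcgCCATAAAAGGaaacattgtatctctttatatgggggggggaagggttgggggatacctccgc
The Ier5 window (chr1:155099637-155099886, minus strand) held none of these letters. A match describes the letters only, and binding was not measured.

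**Figure D1:**
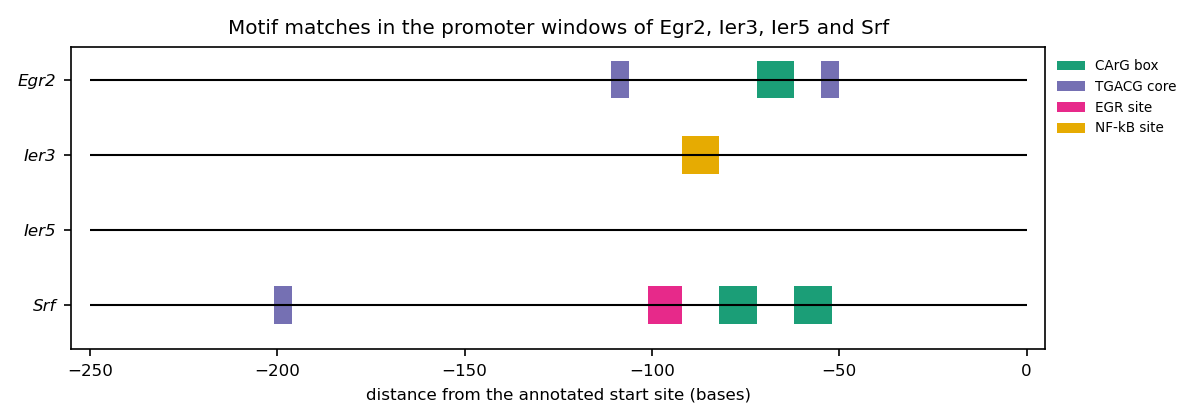
Matches to 4 motifs (coloured boxes) in the 250 bases before the annotated start site, with distance from the start in bases on the x axis and a line each for Egr2, Ier3, Ier5 and Srf. Srf has CArG boxes at 82 and 62 bases, Egr2 has 1 at 72 bases, Ier3 has an NF-kB match at 92 bases, and the Ier5 line is empty.

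Libraries held 14829838 to 20777809 counts. The TMM factors, by which edgeR rescales a library total, were 0.683 to 0.830 in pretreated, 0.904 to 1.14 in GalN/LPS, 1.16 to 1.28 in dmPGE2 and 1.17 to 1.18 in saline libraries, and levels below are TMM-scaled CPM, which are read counts put on a common library size. With library totals instead, the median log2 change of all genes moved to -0.61, against -0.10 with TMM, in pretreated against GalN/LPS livers, and to -0.54, against 0.14, in pretreated against saline livers. In GalN/LPS against saline livers it was -0.15 with totals and 0.03 with TMM. Saline 3 stood apart for Egr1, and tests of Egr1 that rest on it are given with and without it. Replicate pairs all differed by more than counting noise. The hepatocyte markers, which check the tissue, summed to between 77236 and 237271 CPM in every library.

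Egr1 (ENSMUSG00000038418, chr18:34859823-34864984 on the plus strand), the best known EGR factor, was highest in GalN/LPS livers. It reached 55.6, 24.7, 9.17 and 18.8 CPM in the pretreated libraries, 129, 178 and 212 CPM in the GalN/LPS libraries, 2.21, 2.32 and 2.91 CPM in the dmPGE2 libraries and 3.80, 2.14 and 76.7 CPM in the saline libraries. Every GalN/LPS library lay above every other library, and every pretreated library above every dmPGE2 library. The saline libraries did not form a group, since saline 3 lay above all pretreated and all dmPGE2 libraries while saline 1 and saline 2 lay below all pretreated ones.

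Egr2, which is known for its part in nerve myelination and lymphocyte tolerance, was close to undetected without injury. It had 1.27, 1.09, 0.333 and 0.845 CPM in pretreated livers and 17.1, 7.05 and 13.9 CPM in GalN/LPS livers. It had 0.037, 0 and 0 CPM in dmPGE2 livers and 0, 0.050 and 0.048 CPM in saline livers. These are 1 count over the 3 dmPGE2 libraries and 2 counts over the 3 saline libraries, against 46 counts in pretreated and 705 in GalN/LPS livers. The pretreated libraries thus lay between the GalN/LPS and the uninjured ones with no overlap on either side.

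Egr3, a close relative that calcium signals are known to induce in T cells, was the scarcest of the 7. Counts were 2, 2, 0 and 3 in pretreated livers, 69, 47 and 69 in GalN/LPS livers, 3, 3 and 0 in dmPGE2 livers and 3, 0 and 1 in saline livers. These are 0.159, 0.137, 0 and 0.254 CPM in pretreated against 3.66, 2.96 and 3.53 CPM in GalN/LPS livers. The 3 GalN/LPS libraries stood alone and the other 3 groups overlapped, at a depth where a library can hold no read of the gene.

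Ier3, which encodes a survival factor and is a target of NF-kB, was scarce without injury. It had 76.5, 16.8, 12.5 and 22.5 CPM in pretreated livers, 82.5, 80.5 and 92.3 CPM in GalN/LPS livers, 0.412, 0.348 and 0.042 CPM in dmPGE2 livers and 0.642, 0.747 and 0.624 CPM in saline livers. Pretreated 1 came close to the lowest GalN/LPS library, while the other 3 pretreated libraries lay far below it. Every injured liver, pretreated or not, was above every uninjured liver.

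Ier5 followed the same order of groups with less spread. It had 22.1, 11.9, 8.92 and 10.3 CPM in pretreated livers, 41.8, 51.5 and 65.2 CPM in GalN/LPS livers, 3.67, 3.48 and 3.54 CPM in dmPGE2 livers and 3.21, 4.53 and 6.10 CPM in saline livers. The pretreated libraries lay above all uninjured and below all GalN/LPS libraries, and the dmPGE2 libraries lay within the range of saline.

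Ier2 and Srf were already abundant without injury. Ier2 had 24.7, 16.8, 7.0 and 11.7 CPM in pretreated livers, 61.0, 65.8 and 86.2 CPM in GalN/LPS livers, 19.1, 14.1 and 19.8 CPM in dmPGE2 livers and 21.5, 24.8 and 42.8 CPM in saline livers. Srf had 7.38, 6.35, 2.75 and 5.07 CPM in pretreated livers, 16.5, 16.7 and 25.3 CPM in GalN/LPS livers, 13.3, 8.70 and 11.6 CPM in dmPGE2 livers and 11.8, 8.21 and 11.8 CPM in saline livers. For Srf the pretreated livers lay below every other library. For Ier2 they overlapped both uninjured groups, and the dmPGE2 libraries lay below all saline ones.

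**Figure D2:**
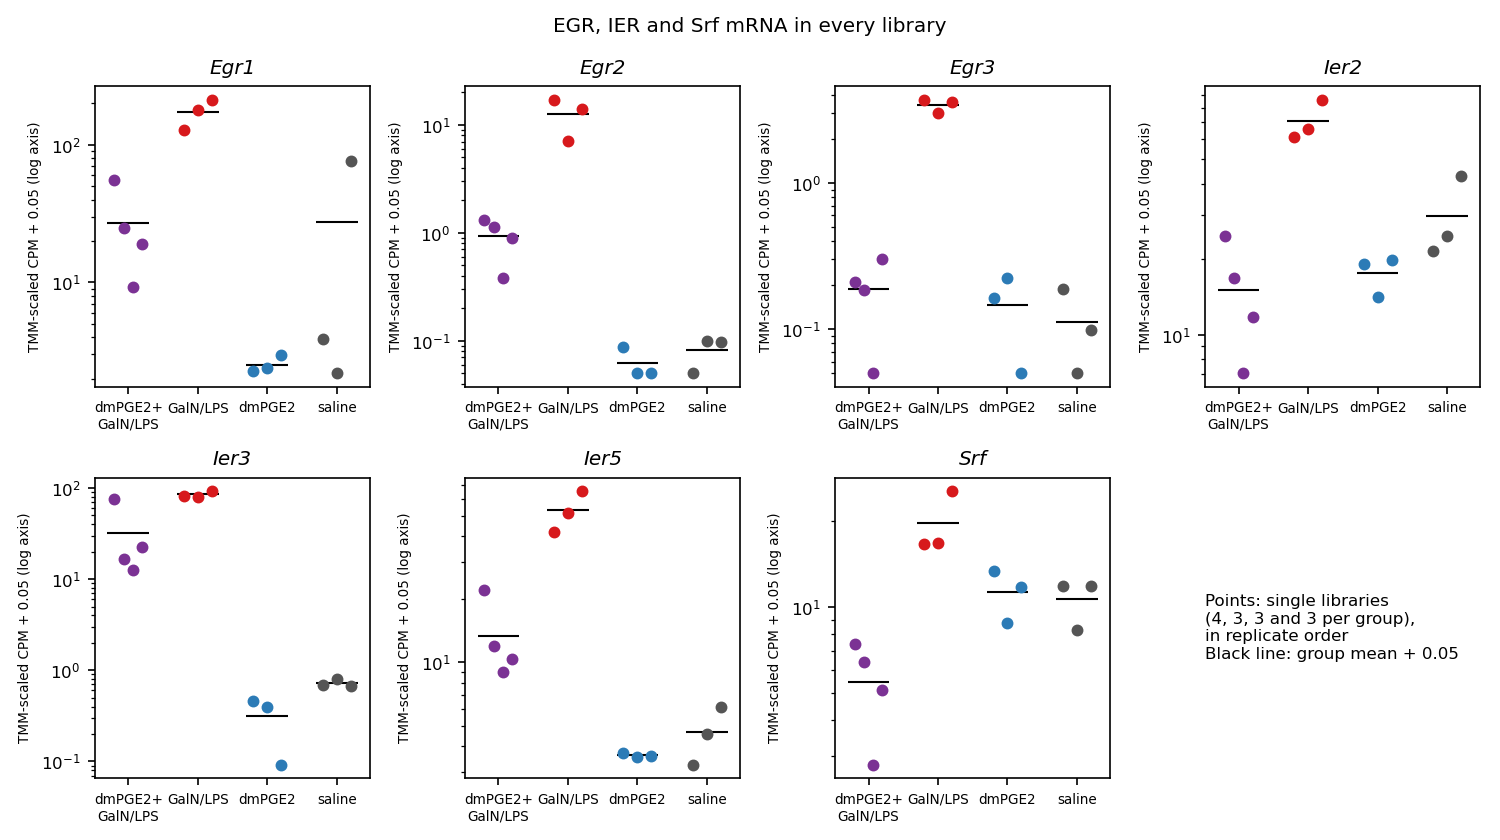
TMM-scaled CPM plus 0.05 on a log axis for the 7 genes, by group from left to right pretreated (n = 4), GalN/LPS (n = 3), dmPGE2 (n = 3) and saline (n = 3), with a point per library and a line at the group mean. The 3 GalN/LPS points are the highest in each panel, saline 3 stands at 76.7 CPM in the Egr1 panel, and pretreated 1 at 76.5 CPM in the Ier3 panel.

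Per unit of length, in the FPKM that the authors deposited, the order of the genes changed with injury. In pretreated livers Ier3 had 10.7 to 66.6, Ier2 4.47 to 15.96, Egr1 1.99 to 12.2, Ier5 2.64 to 6.63 and Srf 0.923 to 2.51 FPKM, and the ranges of Ier3, Ier2, Egr1 and Ier5 each overlapped the next. Within each pretreated library, though, Ier3 lay above Ier2 and Ier2 above Egr1. In GalN/LPS livers Ier3 led with 68.9 to 83.2 FPKM, before Ier2 with 41.6 to 57.7, Egr1 with 29.8 to 48.3, Ier5 with 13.3 to 20.3, Srf with 5.58 to 8.92, Egr2 with 2.01 to 5.22 and Egr3 with 0.650 to 0.863. Of these neighbours only the ranges of Ier2 and Egr1 overlapped, with Ier2 above Egr1 within each GalN/LPS library. In dmPGE2 livers Ier2 led with 9.31 to 13.3 FPKM, before Srf with 3.02 to 4.64, Ier5 with 1.07 to 1.13, Egr1 with 0.496 to 0.665 and Ier3 with 0.0382 to 0.367, none of them overlapping. In saline livers Ier2 led again with 14.4 to 28.3 FPKM, before Srf with 2.90 to 4.15, Ier5 with 0.998 to 1.88 and Ier3 with 0.556 to 0.674. Egr1 had 0.865, 0.488 and 17.2 FPKM in the saline libraries, so its place in that order depends on the library. Ier3 was thus above Srf in every injured library and below it in every uninjured one.

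All 7 genes were higher after GalN/LPS injury, and 6 of them also passed the test with library totals. The filter fixed the direction of Egr2 and Egr3 here, so their calls are descriptions. All 7 (6 without Egr3) passed the edgeR quasi-likelihood test (Benjamini-Hochberg adjusted over all genes, 0.05) as higher in GalN/LPS than in saline livers with no overlap between the groups, where 27.4% of all genes tested were called higher and 30.3% were higher without overlap. Higher calls over all genes made up 41.7% of calls with library totals and 51.7% with TMM. The median log2 change was 3.52 over the 7 genes and 3.08 without Egr3, beside 0.03 for all genes. The gain was largest for Egr2 and smallest for Srf.

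Egr2 changed most, by 8.35 ± 0.62 on the log2 scale (SE), a description since the filter fixed its direction. As a ratio of summed counts this was 408-fold, with a counting interval (95%, exact) of 112 to 3372 that the 2 saline counts make wide. Ier3 rose by 6.97 ± 0.66 (edgeR adjusted p = 2.95e-07) and Ier5, the binder of heat shock factor 1, by 3.52 ± 0.31 (edgeR adjusted p = 1.28e-07). Egr3 had 185 counts in GalN/LPS and 4 in saline livers. Their ratio, 53.5 with a counting interval of 20.5 to 198, is a description, since the filter fixed its direction. On the log2(FPKM + 1) scale, which understates changes of scarce genes, the changes of Egr2 and Egr3 were 2.18 and 0.81.

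Ier2, Srf and, with all saline libraries kept, Egr1 changed less. Ier2 rose by 1.26 ± 0.33 (edgeR adjusted p = 0.00443). Srf rose by 0.88 ± 0.27 (edgeR adjusted p = 0.0116), a call that was lost with library totals (0.73, adjusted p = 0.0615), without saline 2 (0.72, adjusted p = 0.0592) and without GalN/LPS 3 (0.54, adjusted p = 0.141). Egr1 rose by 2.65 ± 0.89 (edgeR adjusted p = 0.0199). Without saline 3 the Egr1 change was 5.84 (edgeR adjusted p = 2.15e-06), whereas without saline 1 it was 2.12 (adjusted p = 0.0609) and without GalN/LPS 3 it was 2.37 (adjusted p = 0.0530), both above the 0.05 limit.

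Markers of other cells moved with these gains. The neutrophil list summed to 712 to 949 CPM in GalN/LPS livers and 5.08 to 16.6 CPM in saline livers, with all 10 of its genes higher. All 10 sinusoidal endothelial genes (620 to 821 CPM in GalN/LPS, 109 to 126 CPM in saline livers) and all 7 monocyte genes (250.2 to 402 CPM in GalN/LPS, 7.92 to 11.4 CPM in saline livers) were higher as well. So were 8 of 10 Kupffer cell and macrophage genes (701 to 1054 CPM in GalN/LPS, 164 to 202 CPM in saline livers), 9 of 10 stellate and fibroblast genes (432 to 829 CPM in GalN/LPS, 99.1 to 160.1 CPM in saline livers) and all 4 smooth muscle genes tested (23.0 to 38.8 CPM in GalN/LPS, 5.03 to 12.7 CPM in saline livers). Among the scarcer types, 7 of 9 T and NK cell genes (32.4 to 36.8 CPM in GalN/LPS, 4.53 to 5.73 CPM in saline livers), 3 of 6 B cell genes (167 to 258 CPM in GalN/LPS, 45.7 to 62.9 CPM in saline livers), 5 of 5 cholangiocyte genes (91.8 to 178 CPM in GalN/LPS, 44.7 to 68.5 CPM in saline livers) and 6 of 6 erythroid and platelet genes (929 to 1707 CPM in GalN/LPS, 223 to 602 CPM in saline livers) were higher. Of 10 hepatocyte genes 0 were higher and 1 was lower. No marker was at 0 in a whole group apart from Ly6g, a neutrophil marker, in dmPGE2 livers. Several markers, among them Ly6g, Mmp8, Il1r2 and Trem1, passed the filter only through injured livers. Their calls as higher than uninjured livers support nothing. In bulk liver, more cells of a type and more RNA per cell cannot be told apart, and the part of these cells in the gains of the 7 genes was not tested.

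Pretreatment with dmPGE2 lowered the 7 genes in injured livers, where the filter fixed the direction of Egr3. All 7 (6 without Egr3) were called lower in pretreated livers, with no overlap with the GalN/LPS livers, where 30.1% of all genes tested were called lower and 27.7% were lower without overlap. With library totals the 7 calls held, and with a replicate block that of Egr1 was lost (-2.33, edgeR adjusted p = 0.0564). With library totals, higher calls over all genes made up 8.33% of calls, against 44.7% with TMM. The median log2 change was -2.23 over the 7 genes and -2.11 without Egr3, beside -0.10 for all genes.

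Egr2 and Egr1 fell furthest of the 6 genes other than Egr3. Egr2 changed by -3.82 ± 0.38 (edgeR adjusted p = 4.66e-06), 14.1-fold lower. Egr1 changed by -2.67 ± 0.81 (edgeR adjusted p = 0.0117), 6.38-fold lower. Egr3 held 7 counts over 4 pretreated libraries and 185 over 3 GalN/LPS libraries, a ratio of 0.0402 with a counting interval of 0.0159 to 0.0845, again as a description. On the log2(FPKM + 1) scale Egr2 and Egr3 changed by -1.88 and -0.78.

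Ier2 changed by -2.23 ± 0.31 (edgeR adjusted p = 6.62e-05), Ier5 by -1.99 ± 0.26 (edgeR adjusted p = 3.92e-05) and Srf by -1.85 ± 0.26 (edgeR adjusted p = 7.14e-05). Ier3 had the smallest change, -1.41 ± 0.43 (edgeR adjusted p = 0.0121), and the one that depended most on a library. Without pretreated 1 it was -2.30 (edgeR adjusted p = 7.81e-06). Pretreated 1 was the highest of the 4 pretreated libraries in 6 of the 7 genes, all but Egr3, while it was the highest for 27.9% of all genes tested. Pretreated 3 was the lowest in 7 of 7, beside 23.8% of all genes. Without pretreated 1 the changes of Egr1, Ier2, Ier5 and Srf were -3.29, -2.57, -2.35 and -2.04.

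The markers of other cells also moved here. All 10 neutrophil genes were lower in the pretreated livers (277 to 433 CPM) than in the GalN/LPS livers (712 to 949 CPM), as were 10 of 10 sinusoidal endothelial genes (208 to 412 CPM in pretreated, 620 to 821 CPM in GalN/LPS livers) and 5 of 7 monocyte genes (101 to 172 CPM in pretreated, 250.2 to 402 CPM in GalN/LPS livers). Of the Kupffer cell and macrophage genes 9 of 10 were lower (320 to 506 CPM in pretreated, 701 to 1054 CPM in GalN/LPS livers), of the stellate and fibroblast genes 9 of 10 (113 to 358 CPM in pretreated, 432 to 829 CPM in GalN/LPS livers) and of the smooth muscle genes 2 of 4 (10.4 to 14.5 CPM in pretreated, 23.0 to 38.8 CPM in GalN/LPS livers). Lower too were 6 of 9 T and NK cell genes (14.5 to 16.7 CPM in pretreated, 32.4 to 36.8 CPM in GalN/LPS livers), 6 of 6 B cell genes (42.4 to 102 CPM in pretreated, 167 to 258 CPM in GalN/LPS livers), 3 of 5 cholangiocyte genes (64.8 to 103 CPM in pretreated, 91.8 to 178 CPM in GalN/LPS livers) and 4 of 6 erythroid and platelet genes, of which 1 was higher (656 to 1026 CPM in pretreated, 929 to 1707 CPM in GalN/LPS livers). Hepatocyte genes were higher in 9 of 10 cases (4 with library totals), with 155962 to 237271 CPM in pretreated and 98459 to 142202 CPM in GalN/LPS livers. Pretreated 1 had the highest neutrophil sum of its group, 433 CPM, and the lowest stellate and fibroblast sum, 113 CPM. The part of these cells in the lower levels of the 7 genes was not tested.

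**Figure D3:**
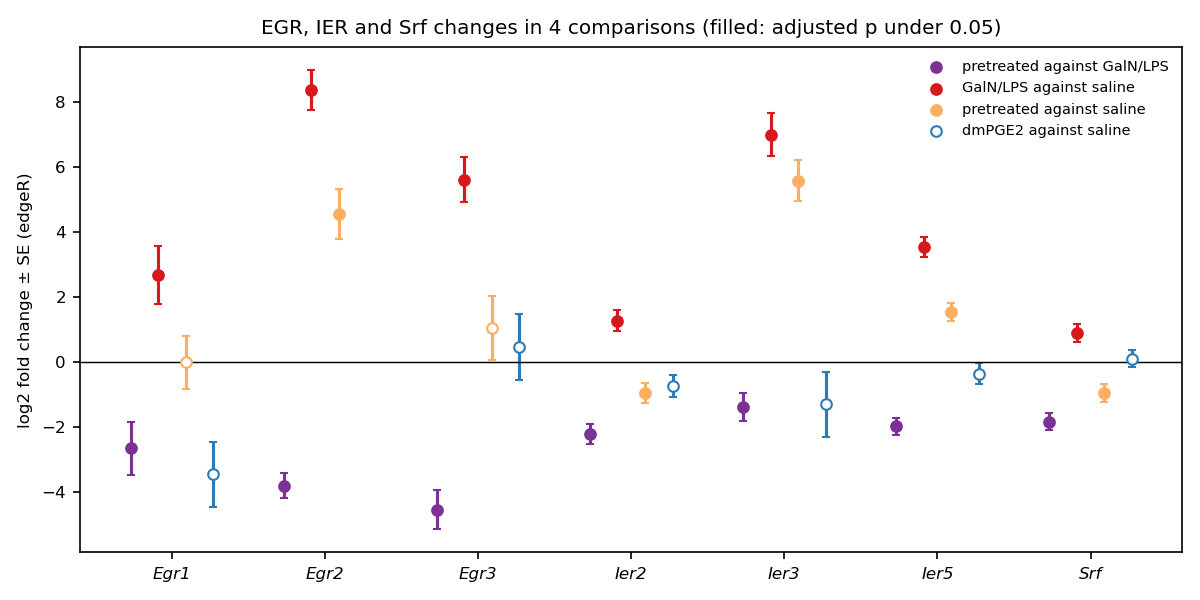
Log2 fold changes of the 7 genes from edgeR with their standard errors in 4 comparisons, filled where the adjusted p was under 0.05, and with no point for Egr2 in dmPGE2 against saline livers, which held 1 and 2 counts. All purple points (pretreated against GalN/LPS) lie below 0 and all red points (GalN/LPS against saline) above it, the red Srf point being open with library totals. The blue points (dmPGE2 against saline) are all open.

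Given without injury, dmPGE2 changed none of the 7 genes past the test. Over all genes the edgeR count was also 0 (0% of 14280), with 1990 genes, 2 of them among the 7, at an unadjusted p under 0.05. DESeq2 called 137 genes higher and 140 lower, again with 0 of the 7. Ier2 was lower in dmPGE2 livers without overlap, as were 12% of all genes tested, with a log2 change of -0.75 ± 0.33 (edgeR adjusted p = 0.327). Ier3 was lower without overlap as well, at -1.31 ± 1.00 (edgeR adjusted p = 0.583) on 18 counts in dmPGE2 and 42 counts in saline libraries. Srf differed by 0.09, with a 95% interval of -0.48 to 0.66, and Ier5 by -0.37, with an interval of -1.03 to 0.30, so that neither interval reached the size of the fall that went with dmPGE2 in injured livers. Egr1 differed by -3.47 ± 1.00 (edgeR adjusted p = 0.156), and by -0.26 without saline 3 (edgeR adjusted p = 0.887). Egr3 had 6 counts in dmPGE2 and 4 in saline libraries, a ratio of 1.39 with a counting interval of 0.330 to 6.70.

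Whether the effect of dmPGE2 differed between injured and uninjured livers was tested as an interaction, the change by dmPGE2 in injured livers less that in uninjured ones. It passed for 4 of the 7 genes (3 without Egr3), all negative, where 19.6% of all genes tested were called negative and 15.4% positive. The value was -1.94 ± 0.38 for Srf (edgeR adjusted p = 0.00234), -1.62 ± 0.41 for Ier5 (edgeR adjusted p = 0.00827), -1.49 ± 0.46 for Ier2 (edgeR adjusted p = 0.0209) and -5.02 ± 1.30 for Egr3 (edgeR adjusted p = 0.00951). For Srf, Ier5 and Ier2 the change by dmPGE2 was thus more negative in injured than in uninjured livers, while the Egr3 call supports nothing. Markers of several other cell types moved the same way. A negative interaction was called for 9 of 10 sinusoidal endothelial genes (median -1.65) and 8 of 10 Kupffer cell and macrophage genes (median -1.39). It was also called for 6 of 10 stellate and fibroblast genes (median -1.58) and 3 of 10 neutrophil genes. The same held for 3 of 7 monocyte, 3 of 6 B cell and 2 of 5 cholangiocyte genes. It was called for 0 of 9 T and NK cell, 0 of 4 smooth muscle and 0 of 6 erythroid and platelet genes (2, 1 and 2 with library totals). The median was -1.62 for the 7 genes and -1.55 without Egr3. The interaction was positive for 5 of 10 hepatocyte genes (3 with library totals) and 1 of 6 erythroid and platelet genes (0 with library totals). The part of these cells was not tested. The time after dmPGE2 may differ between the groups, and its part cannot be told apart from that of injury. Over all genes, 44.0% of the calls were positive with TMM and 3.40% with library totals.

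The interaction of Ier2 was lost without saline 1 (-1.29, edgeR adjusted p = 0.0553), without saline 2 (-1.36, adjusted p = 0.0530) and without GalN/LPS 3 (-1.34, adjusted p = 0.0569), and that of Egr3 without dmPGE2 2 (-4.45, adjusted p = 0.0508). Egr1 did not pass, at 0.80 ± 1.25 (edgeR adjusted p = 0.641), but was -2.40 without saline 3 (adjusted p = 0.0216). Ier3, at -0.10 ± 1.46 (edgeR adjusted p = 0.964), rests on the few counts of the uninjured livers. Egr2, at -2.97 ± 2.59 (edgeR adjusted p = 0.382), has 3 counts in all uninjured livers together, which is too few to show whether dmPGE2 acts there. With limma on FPKM its interaction passed, at -1.87 with FPKM + 1 (adjusted p = 0.000645), at -3.36 with FPKM + 0.1 (adjusted p = 0.000994) and with FPKM + 1 and no filter (adjusted p = 0.00340). Uninjured livers had at most 0.0150 FPKM of Egr2, which these added constants swamp. With FPKM + 1 the interaction thus nearly repeated the change in injured livers (-1.88). These calls cannot show whether dmPGE2 acts in uninjured livers.

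Set against saline, pretreated livers lay above saline in some of the genes and below it in others. Of the 7 genes 3 were called higher and 2 lower, where 34.8% and 30.2% of all genes tested were, so these shares are near those of all genes. This comparison shares its saline libraries with that of GalN/LPS against saline livers and its pretreated libraries with that against GalN/LPS livers. Ier3 was 5.57 ± 0.63 above saline (edgeR adjusted p = 1.86e-06) and Ier5 1.53 ± 0.29 (edgeR adjusted p = 0.000243). Egr2, also called higher, was 4.54 ± 0.77 above saline, a description since the filter fixed its direction. The Egr2 ratio was 28.2 with a counting interval of 7.39 to 240.2, and its call was lost on the log2(FPKM + 1) scale (0.31, limma adjusted p = 0.150). Without pretreated 1 Ier3 was 4.67 above saline.

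Srf was 0.97 lower on the log2 scale in pretreated than in saline livers (SE 0.27, edgeR adjusted p = 0.00472), 1.96-fold, and the groups did not overlap. Ier2 was also lower, by -0.98 ± 0.31 (edgeR adjusted p = 0.0124), but its groups overlapped and the call was lost without saline 3 (-0.61, adjusted p = 0.111). Egr3 did not pass, at 1.03 ± 0.98 (edgeR adjusted p = 0.366). Egr1 stood at -0.02 ± 0.81 (edgeR adjusted p = 0.982) against all saline libraries, and at 3.18 (adjusted p = 0.000183) without saline 3. Over all genes 53.5% of the calls were higher with TMM and 19.9% with library totals. Of the cell markers, all 10 neutrophil genes (median 5.44) and all 7 monocyte genes (median 3.81) were higher in pretreated than in saline livers, as were 9 of 10 sinusoidal endothelial (4 with library totals), 7 of 10 Kupffer cell and macrophage (5 with library totals), 2 of 10 stellate and fibroblast (0 with library totals) and 9 of 10 hepatocyte genes (2 with library totals). Their part in these values was not tested.

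Against the dmPGE2 livers, which share the drug and carry no saline 3, the pretreated livers were higher in 4 of the 7 genes and lower in 1, where 35.3% and 31.4% of all genes tested were called. All 10 neutrophil genes (277 to 433 CPM in pretreated, 5.82 to 9.89 CPM in dmPGE2 livers) and all 7 monocyte genes (101 to 172 CPM in pretreated, 9.95 to 14.2 CPM in dmPGE2 livers) were also higher, and so were 7 of 10 sinusoidal endothelial (3 with library totals), 6 of 10 Kupffer cell and macrophage (2 with library totals) and 9 of 10 hepatocyte genes (5 with library totals). Their part in the values of the 7 genes was not tested. Ier3 was higher by 6.88 ± 0.71 (edgeR adjusted p = 6.98e-07), Egr1 by 3.45 ± 0.98 (edgeR adjusted p = 0.00556) and Ier5 by 1.90 ± 0.29 (edgeR adjusted p = 3.68e-05). Egr2, also called higher, stood 5.38 ± 0.85 above dmPGE2 livers, again a description. The Egr2 ratio of counts was 60.9, with a counting interval of 10.4 to 2458, and its call was lost with FPKM + 1 (0.31, limma adjusted p = 0.137). With FPKM + 1 and no filter the calls of Egr2 (limma adjusted p = 0.278) and Egr1 (1.93, limma adjusted p = 0.0754) were lost. Srf changed by -1.06 ± 0.27 (edgeR adjusted p = 0.00233), so injured livers pretreated with dmPGE2 had less Srf mRNA than either uninjured group. Ier2, at -0.23 ± 0.32 (edgeR adjusted p = 0.538), passed as lower with library totals (-0.97, adjusted p = 0.0208). Egr3, at 0.58 ± 0.91 (edgeR adjusted p = 0.591), did not pass. Over all genes 53.0% of the calls were higher with TMM and 17.6% with library totals.

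Egr1 in saline 3 was 20.2-fold above saline 1 and 35.8-fold above saline 2, the largest ratio to the higher of the other saline libraries among 11756 genes with at least 1 CPM in saline 3. The library carried 21 genes at least 4-fold above both others. Of the other immediate early genes listed, Fos was among them, singled out after its values were seen, with 3.79 CPM against at most 0.504 CPM. Btg2, an antiproliferative immediate early gene, had 24.0 CPM against at most 8.39 CPM, and Junb had 47.3 CPM against at most 24.3 CPM. Srf (1.00 times the higher of the other saline libraries), Ier5 (1.35 times) and Ier2 (1.73 times) deviated less. Not all early genes were high, since Dusp1, an ERK phosphatase gene, stood at 0.428 times and Myc at 0.597 times the higher of the others. The neutrophil sum was 16.6 CPM in saline 3 against 8.2 and 5.1 CPM in saline 1 and saline 2, the stellate and fibroblast sum 160.1 against 99.1 and 101.7 CPM and the smooth muscle sum 12.7 against 8.7 and 5.0 CPM. Their part in the Egr1 level was not tested.

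**Figure D4:**
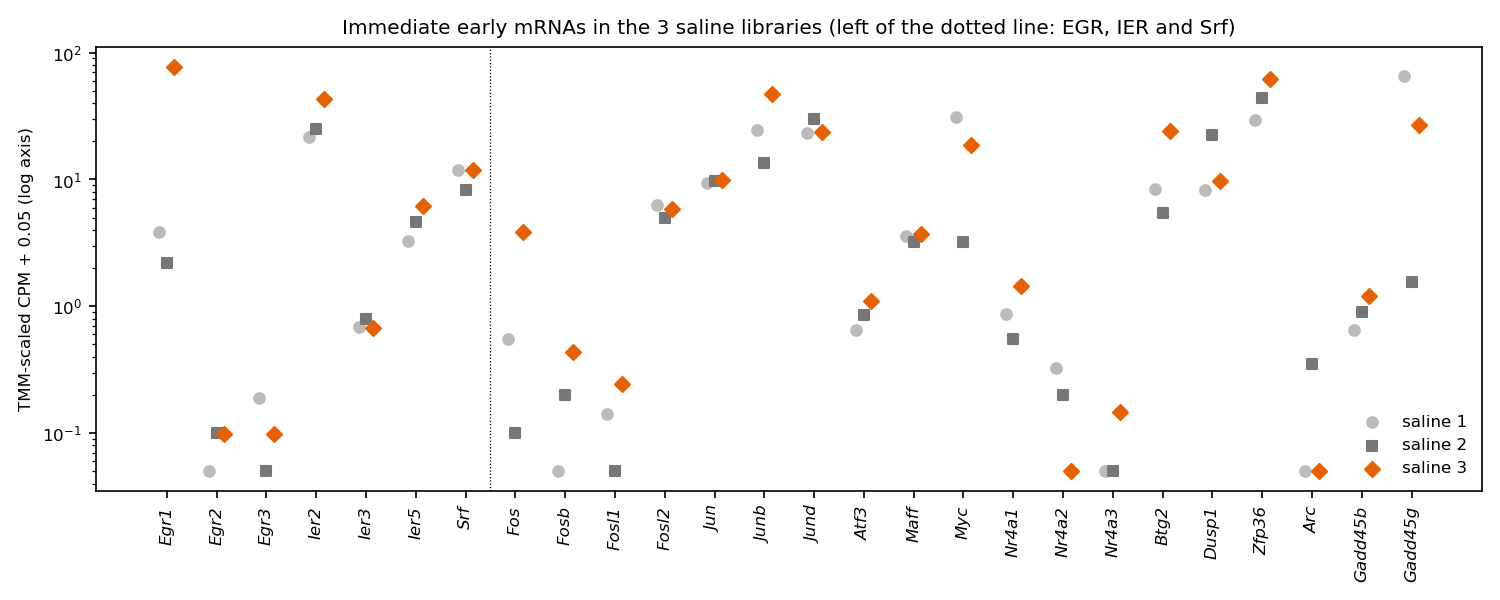
TMM-scaled CPM plus 0.05 on a log axis in the 3 saline libraries for the 7 genes, left of the dotted line, and 19 other immediate early genes, with a marker per library. Saline 3 (orange) stands apart for Egr1 at 76.7 CPM and Fos at 3.79 CPM, and lies within or below the range of the others for Ier3, Srf, Myc and Dusp1.

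The other genes of the same pathways were described from lists, with Benjamini-Hochberg calls over all genes. Of all genes tested, 27.4% were called higher and 25.6% lower with injury, and 24.4% higher and 30.1% lower with pretreatment. Of 19 other immediate early genes 16 were higher in GalN/LPS than in saline livers, with a median log2 change of 3.53, and 17 were lower after pretreatment than in GalN/LPS livers without it, with a median of -1.94. The list includes Fosb, Fosl1, Nr4a2, Nr4a3 and Arc, which passed the filter only through the GalN/LPS libraries. Their calls that involve GalN/LPS livers support nothing and raise these counts and medians. Nr4a1, an orphan nuclear receptor, rose by 5.86 ± 0.35 with injury (edgeR adjusted p = 1.69e-09) and changed by -2.47 ± 0.25 with pretreatment (edgeR adjusted p = 6.07e-06). Its relative Nr4a3 had 4, 2, 6 and 4 counts in pretreated livers and 93, 66 and 125 in GalN/LPS livers. It passed the filter only through the GalN/LPS libraries, so its change of -4.00 ± 0.47 with pretreatment is a description. Dusp1 rose by 3.53 ± 0.33 (edgeR adjusted p = 2.91e-07) and changed by -2.18 ± 0.28 (edgeR adjusted p = 3.81e-05). Against saline 13 of the 19, all of them among those 16, were higher in pretreated livers and 2 were lower, which were 7 and 3 with library totals.

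Of the relatives and brakes of the EGR proteins, Egr4 had 4 counts in GalN/LPS livers and 0 elsewhere, and Wt1 was not tested. Nab2, a corepressor that EGR proteins are known to induce, moved against them with injury, being lower in GalN/LPS than in saline livers (-0.57 ± 0.22, edgeR adjusted p = 0.0345), and was lower again after pretreatment (-0.88 ± 0.21, edgeR adjusted p = 0.00312). Nab1 rose with injury by 0.54 ± 0.12 (edgeR adjusted p = 0.00130) and stood at 0.09 ± 0.11 with pretreatment (edgeR adjusted p = 0.492). Ier5l, a relative of Ier5, rose by 2.41 ± 0.44 with injury (edgeR adjusted p = 0.000266) and stood at -0.81 ± 0.38 with pretreatment (edgeR adjusted p = 0.0808). All 3 tested genes of this list were called lower after pretreatment with library totals.

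Of 12 genes reported as EGR targets 8 were higher with injury and 9 were lower with pretreatment (12 with library totals), with medians of 3.05 and -1.52. Fasl, in this list, passed the filter only through the GalN/LPS libraries, so its calls that involve GalN/LPS livers support nothing. Thbs1, the gene of the matrix protein thrombospondin 1, rose by 7.53 ± 0.54 with injury (edgeR adjusted p = 1.41e-08) and changed by -3.79 ± 0.37 with pretreatment (edgeR adjusted p = 4.19e-06). The adhesion gene Icam1, also a target of NF-kB, rose by 3.98 ± 0.21 (edgeR adjusted p = 6.65e-10) and changed by -2.39 ± 0.18 (edgeR adjusted p = 6.54e-07). F3, the gene of tissue factor, was lower in pretreated than in saline livers, by -2.31 ± 0.33 (edgeR adjusted p = 1.61e-05).

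The ternary complex and actin-sensing partners of serum response factor were called about as often as all genes. Of 6 tested, 2 rose and 2 fell with injury, and 1 rose and 2 fell with pretreatment, where with library totals 2 were lower and none higher. Fhl2, a cofactor gene that serum response factor itself activates, had 30, 18 and 29 counts in GalN/LPS livers and at most 9 in any other library. It passed the filter only through the GalN/LPS libraries. Its changes of 3.39 ± 0.71 with injury and -2.54 ± 0.64 with pretreatment are thus descriptions. Mkl2, the gene of an actin-sensing coactivator, was lower with injury, by -1.51 ± 0.20 (edgeR adjusted p = 1.16e-05). Of 16 cytoskeletal targets of serum response factor tested, 14 rose with injury (12 with library totals), with a median of 1.89, and 14 fell with pretreatment (16 with library totals), with a median of -1.28. Ankrd1, in this list, passed the filter only through the GalN/LPS libraries, so its calls that involve GalN/LPS livers support nothing. Flna, the gene of the actin crosslinker filamin A, rose by 3.68 ± 0.26 with injury (edgeR adjusted p = 1.44e-08), and Cyr61, the gene of a matricellular protein, changed by -3.49 ± 0.38 with pretreatment (edgeR adjusted p = 1.04e-05). Relative to saline, 9 of the 16 were higher in pretreated livers and none lower with TMM, whereas 3 were higher and 4 lower with library totals.

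Of 16 genes of the ERK cascade 7 were higher and 2 lower with injury (4 and 2 with library totals). With pretreatment 4 were higher and 5 lower (1 and 7 with library totals), shares near those of all genes. Map3k8, the kinase that links toll-like receptors to ERK, rose by 4.19 ± 0.24 with injury (edgeR adjusted p = 1.44e-09) and changed by -2.04 ± 0.19 with pretreatment (edgeR adjusted p = 3.26e-06), while Mapk3, the gene of ERK1, was 0.60 ± 0.11 higher with pretreatment (edgeR adjusted p = 0.000397). Of 7 cAMP-responsive genes, which prostaglandin E receptors are known to induce, 2 were higher and 3 lower with pretreatment (1 and 4 with library totals), and 0 passed in uninjured livers given dmPGE2. Among these, Sik1, the gene of a kinase that dampens cAMP signals, changed by -1.92 ± 0.23 with pretreatment of injured livers (edgeR adjusted p = 2.03e-05).

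Beside Ier3, 9 of 10 NF-kB feedback genes rose with injury and 10 of 10 fell with pretreatment, with medians of 2.19 and -1.66, and the interaction was negative for all 10. Tnfaip3, the gene of the inhibitor A20, rose by 6.12 ± 0.30 (edgeR adjusted p = 3.62e-10) and changed by -2.77 ± 0.22 (edgeR adjusted p = 1.08e-06). Beside Ier5, a list of 9 genes held heat shock factor 1, its targets and Ppp2r2a. Of these 5 rose and 1 fell with injury, and 6 fell with pretreatment (8 with library totals). Hspa1a, an inducible HSP70 gene, stood 4.66 ± 0.56 higher with injury, a description since it passed the filter only through injured livers. It has a near-identical copy, Hspa1b, with which it can share reads. Ppp2r2a, the gene of the phosphatase subunit that IER5 is known to recruit, changed by -1.70 ± 0.18 with pretreatment (edgeR adjusted p = 7.26e-06), and Dnajb1 by -1.56 ± 0.22 (edgeR adjusted p = 7.20e-05).

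**Figure D5:**
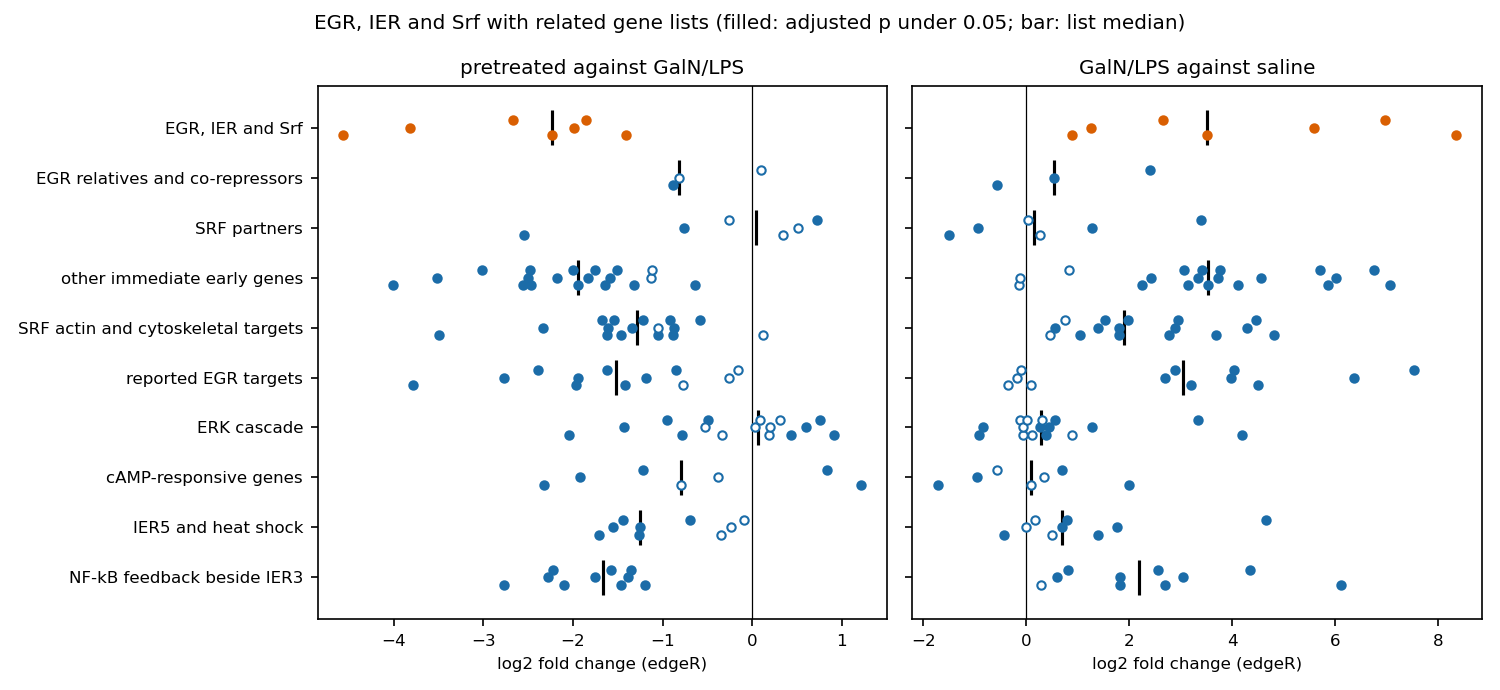
Log2 fold changes of the 7 genes (orange) and of 9 lists of related genes (blue), pretreated against GalN/LPS livers on the left and GalN/LPS against saline livers on the right, filled where the edgeR adjusted p was under 0.05 and with a bar at each list's median. All orange points are filled, below 0 on the left and above 0 on the right (Srf open there with library totals), while the partners of serum response factor and the ERK cascade have medians near 0, which are below 0 on the left with library totals.

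The 7 genes did not share a single pattern over the 13 libraries. Pearson's r of log2 CPM, a description without a test since the libraries share 4 groups, was 0.98 for Egr2 with Ier5, 0.93 for Ier3 with Ier5 and 0.88 for Ier2 with Srf. It was 0.05 for Ier3 with Srf and 0.37 for Egr2 with Srf. Ier2 and Srf, which had a clear level in uninjured livers, were each closest to the other among the 7 genes. Egr2, Ier3 and Ier5, which stayed above saline after pretreatment, were likewise closest among themselves.

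Among 11429 other genes with a mean of at least 1 CPM, the patterns most like each gene were found by the same r over 13 libraries. For Egr1 these were Btg2 (0.98), Junb (0.95) and Acta2 (0.94), for Egr2 Neurl3, Sbno2 and Tgfb1 (0.99 each) and for Egr3 Sowahc (0.98), Hilpda (0.97) and Prkd2 (0.96). Saline 3 is included, where Btg2 and Junb stood at 2.87 and 1.94 times the higher of the other saline libraries. The r without saline 3 was not computed. As Egr3 passed the filter only through the GalN/LPS libraries, its r mostly sets those libraries against the rest. Spearman's rho for its 3 genes was 0.88, 0.83 and 0.73. For Ier2 they were Pnrc1 (0.95), Btg1 (0.94) and Zfp513 (0.94), for Ier3 Gadd45b (0.99), Nupr1 (0.99) and Cd52 (0.98), and for Ier5 Atf3 (0.99) and Pim1 (0.99). For Srf they were Zfp36l1 (0.95), Snx17 (0.94) and Trib1 (0.94). Btg2, Junb, Gadd45b and Atf3 belong to the list of other immediate early genes, and Tgfb1 to the reported EGR targets. Acta2 belongs both to the cytoskeletal targets of serum response factor and to the smooth muscle markers.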

How the data were processed

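Mouse liver RNA was measured in 13 libraries of 4 groups. The raw read counts per Ensembl gene and the FPKM values were deposited by the authors for the same libraries. HISAT2 (version not given) and GRCm38/mm10 come from the submitters' processing notes. The counter, the annotation release and the strand setting of the authors were not given in the sources used here. FPKM divides a count by gene length and a library denominator, per the deposited table's name for the unit. Column names gave the group and replicate of each sample, with ALF taken as GalN/LPS.

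Counts were fitted in all 13 libraries together with edgeR 4.0.16 (R 4.3.3), with group as the term, TMM factors, filterByExpr by group and the quasi-likelihood F test, two-sided, Benjamini-Hochberg adjusted over 14280 genes at 0.05. These genes held 99.9% of the counts, with totals of 14829838 to 20777809 per library and a common dispersion of 0.0390. SEs were the log2 change divided by the square root of F. Counting intervals (95%, exact Clopper-Pearson on group sums) cover counting error only. Alternatives were DESeq2 1.42.0, its size factors, library totals, no filter, a filter at 1 CPM in 3 libraries, limma 3.58.1 on log2(FPKM + 1) and log2(FPKM + 0.1), each library left out, the compared groups alone and a replicate block. A fit without saline 3 and pretreated 1 was added after seeing the data.

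Named genes were the 7 genes, the 3 most like each (1 of those for Ier5 is not reported here), and from each list those with the smallest adjusted p (up to 4 per comparison), apart from exceptions marked in the text. The genes and all lists (9 pathway and 11 cell type lists) were chosen with earlier results of these data known. Promoter sequences are from RefSeq (GRCm38.p6).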

Additional observations from a re-analysis of the deposited data

Results flagged for a closer look

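By the interaction test the effect of dmPGE2 differed between injured and uninjured livers for Ier2, Ier5 and Srf, where 19.6% of all genes tested had a negative call. Egr3 passed as well, which supports nothing, so that 4 of the 7 genes were called. The interaction was -5.02 for Egr3, -1.49 for Ier2, -1.62 for Ier5 and -1.94 for Srf on the log2 scale. All 4 genes were lower in pretreated livers than in GalN/LPS ones, and 0 of the 4 passed between dmPGE2 and saline livers. The Egr3 value rests on 7 counts in pretreated, 6 in dmPGE2 and 4 in saline livers, on a gene that passed the filter only through the GalN/LPS libraries, and its call was lost without dmPGE2 2 (edgeR adjusted p = 0.0508). The Ier2 call was lost without saline 1, saline 2 or GalN/LPS 3, with a replicate block and with FPKM + 1 and no filter (adjusted p of 0.0507 to 0.0618).

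Ier3 in pretreated 1, at 76.5 CPM, stood apart from the other 3 pretreated libraries, with a gap to the nearest of them that made up 0.844 of the range of its group, above Dixon's critical value. Chance gives such a gap in about 1 in 20 groups.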

How the results depend on the processing

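Of the alternatives for changes of the 7 genes, 719 kept direction and call, 19 lost the call, 9 gained it and 26 turned the direction, of which 22 (of Egr1, Egr3, Ier2, Ier3 and Srf) passed the test in neither fit. The 4 that turned and passed were Egr1 in pretreated against saline livers, 3.18 without saline 3 and 2.56 without both saline 3 and pretreated 1, and the Egr1 interaction, -2.40 and -3.02 in the same fits. With each library left out in turn these ran from -0.64 to 3.18 and from -2.40 to 1.35. With library totals, all genes gave 618 higher and 6799 lower in pretreated against GalN/LPS livers, 1686 and 6803 in pretreated against saline, 1523 and 7143 in pretreated against dmPGE2 livers and 183 and 5205 in the interaction, and lower calls among the 7 genes in pretreated against dmPGE2 livers became 2. For dmPGE2 against saline livers, higher and lower calls over all genes were 137 and 140 with DESeq2, 290 and 171 with no filter (3 of the 7 genes lower), 12 and 4 with FPKM + 1, 7 and 3 with FPKM + 1 and no filter, 0 to 1 and 0 to 3 with a library left out, and 3 and 5 without saline 3 and pretreated 1. No filter also gave 2 of the 7 genes lower in pretreated against dmPGE2 livers and 1 positive interaction, and FPKM + 1 with no filter left 2 higher in pretreated against dmPGE2 livers. The edgeR fit with no filter had infinite prior degrees of freedom, against 6.80 in the main fit. It thus left out each gene's own spread between libraries, and its calls carry little weight. Leaving out a library gave 1 to 2 of the 7 genes lower in pretreated against saline livers, and 1370 (without GalN/LPS 3) to 2705 positive interactions over all genes. The causes were not tested. Depth limits Egr2 and Egr3 in uninjured livers, where each group held 1 to 6 counts in all.

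Same-numbered libraries did not deviate together (correlations of -0.32 to 0.09), so the numbers are not taken as pairs. With a replicate block the Egr1 call in pretreated against GalN/LPS livers was lost (-2.33, edgeR adjusted p = 0.0564), as were those of Ier2 in pretreated against saline livers (-0.84, adjusted p = 0.0646), leaving 1 lower gene there, and in the interaction (-1.37, adjusted p = 0.0618). By Spearman's rho, 3 of the closest 3 genes were shared for Egr1, 1 each for Egr2, Ier2 and Ier5 and 0 each for Egr3, Ier3 and Srf.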
